A study of Mus musculus with 19 samples.

Results

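The 34 genes described here encode the cholesterol machinery of the cell: 18 enzymes of cholesterol synthesis, 4 regulators of the SREBP2 switch, 8 genes of the liver X receptor (LXR) branch and 4 proteins that move or store sterol inside the cell. They were taken by symbol from a table of 24537 genes, which held 34 of 34, with values in TPM, an abundance scaled for transcript length and library size. All 34 had a mean TPM of at least 1 and were tested beside 15049 genes in all. The 19 libraries were made from nuclear RNA of cortical astrocytes of male C57BL/6J mice, sorted as SOX9+ NEUN- nuclei at postnatal day 26, 27 or 28. Every mouse carried Smad4 fl/fl, the WT mice included. The double mutant (n = 4) was Fmr1 -/y and GFAP-cre+, the Smad4 cKO (n = 6) was Fmr1 +/y and GFAP-cre+, the Fmr1 KO (n = 5) was Fmr1 -/y and GFAP-cre-, and the WT (n = 4) was Fmr1 +/y and GFAP-cre-. The Cre line was Gfap-Cre 73.12, so Smad4, the common partner of BMP and TGF-beta signalling SMADs, is deleted wherever Gfap promoter sequence drives Cre. Fmr1 encodes FMRP, the RNA-binding protein missing in fragile X syndrome, and its knockout is not limited to astrocytes. The design asks what each mutation, and both together, did to the transcriptome of astrocyte nuclei. No label says that the libraries of a group came from separate mice, so p-values measure the spread between libraries.

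Cholesterol cannot cross the blood-brain barrier, and astrocytes make much of the sterol that neurons take up. When sterol in the endoplasmic reticulum is low, SCAP carries the precursor of SREBP2 (gene Srebf2) to the Golgi, where it is cut and released to switch on the synthesis enzymes; INSIG1 and INSIG2 hold SCAP back when sterol is plentiful. Oxidised sterols activate LXR, which turns on exporters such as ABCA1 and the carrier apolipoprotein E. SREBPs bind sterol regulatory elements, usually beside a CCAAT box that NF-Y binds.

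RefSeq promoter windows (GRCm38.p6, 250 bases before the annotated start) existed for 27 of 34 genes and are shown because synthesis enzymes moved together from library to library, as described further on. These 27 genes had 36 windows, and a gene was counted if any of its windows held the letters. TCACNCCA, on either strand, was found for 4 of 27 members (Hmgcs1, Msmo1, Srebf2 and Apoe), against 4.2% of 27025 genes with a window. CCAAT, on either strand, was found for 21 of 27 members, against 37.5% of all genes. Of the 15 synthesis enzymes with a window, 14 held CCAAT, all but Acat2, against 7 of the 12 other members. The LXR element, a direct repeat of AGGTCA with 4 bases between, was found for 0 of 27 members and for 4 of 27025 genes. Printed here are the window of Hmgcs1, those of Cyp51 and Mvd, whose levels followed it most closely, that of Srebf2 itself, and that of Abca1 as an LXR target with neither motif. Capitals mark TCACNCCA and CCAAT or their reverse strand (TGGNGTGA and ATTGG), and each window is read 5′ to 3′ towards its gene. A match is a description of letters, not a bound site.
Hmgcs1: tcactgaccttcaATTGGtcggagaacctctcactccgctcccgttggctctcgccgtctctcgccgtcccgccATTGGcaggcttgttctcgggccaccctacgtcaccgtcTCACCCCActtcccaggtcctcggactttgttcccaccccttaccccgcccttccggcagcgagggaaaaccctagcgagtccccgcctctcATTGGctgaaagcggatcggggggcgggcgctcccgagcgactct
Cyp51: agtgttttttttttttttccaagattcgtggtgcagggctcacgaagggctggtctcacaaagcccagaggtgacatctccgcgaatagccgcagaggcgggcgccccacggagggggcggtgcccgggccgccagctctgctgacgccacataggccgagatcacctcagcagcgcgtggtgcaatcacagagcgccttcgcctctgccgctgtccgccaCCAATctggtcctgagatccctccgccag
Mvd: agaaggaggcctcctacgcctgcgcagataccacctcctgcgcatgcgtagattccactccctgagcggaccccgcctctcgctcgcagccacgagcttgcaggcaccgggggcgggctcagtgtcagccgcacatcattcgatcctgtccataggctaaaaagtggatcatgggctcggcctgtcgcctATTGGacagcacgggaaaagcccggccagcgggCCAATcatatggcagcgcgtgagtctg
Srebf2: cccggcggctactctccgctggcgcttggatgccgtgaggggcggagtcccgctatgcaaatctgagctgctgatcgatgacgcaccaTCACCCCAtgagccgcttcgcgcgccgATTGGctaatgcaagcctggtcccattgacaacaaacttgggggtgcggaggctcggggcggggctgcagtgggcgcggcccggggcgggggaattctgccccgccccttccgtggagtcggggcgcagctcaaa
Abca1: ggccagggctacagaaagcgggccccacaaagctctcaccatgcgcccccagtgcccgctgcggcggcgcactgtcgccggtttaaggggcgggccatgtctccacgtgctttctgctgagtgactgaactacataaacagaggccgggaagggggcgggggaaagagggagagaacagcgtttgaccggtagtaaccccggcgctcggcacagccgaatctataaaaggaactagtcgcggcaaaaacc
The Hmgcs1 window is chr13:119690101-119690350 on the plus strand and holds TCACCCCA starting 137 bases before the gene start, with 3 CCAAT boxes. The Cyp51 window is chr5:4104698-4104947 on the minus strand and has 1 CCAAT box. The Mvd window is chr8:122443423-122443672 on the minus strand and has 2 CCAAT boxes. The Srebf2 window is chr15:82147019-82147268 on the plus strand, with TCACCCCA starting 162 bases before the gene start and 1 CCAAT box. The Abca1 window, chr4:53159896-53160145 on the minus strand, has 0 matches to either motif.

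All 16 astrocyte markers were above 0 in every library, with a summed level of 8280 to 14600 TPM; neuron markers summed to 154 to 1080 TPM and oligodendrocyte markers to 284 to 4020 TPM, with all 16 and 15 of those above 0 in every library. The ribosomal precursor Rn45s took 15.6% to 35.7% of the listed TPM. Genotype names are the labels of the libraries. Fmr1 averaged 37.1 ± 1.37 TPM in double mutant and 38.9 ± 1.94 TPM in Fmr1 KO libraries, against 23.8 ± 2.73 TPM in Smad4 cKO and 26.2 ± 4.29 TPM in WT libraries (SD), so it was higher where the label says knockout. Smad4 averaged 32.2 ± 2.68 TPM in double mutant and 32.4 ± 2.24 TPM in Smad4 cKO libraries, against 32.4 ± 1.49 TPM in Fmr1 KO and 33.3 ± 2.62 TPM in WT libraries (SD). A gene-level TPM does not resolve the disrupted part of either gene, so these levels do not check the labels as losses. Fmr1 KO replicate 2 stood apart: it held the highest value of its group by a wide gap for 8 of the 34 genes, and results that rest on it are given without it. The gene bodies of 7 members overlap another protein-coding gene; Mvd lies inside Gm20388 and most of Fdps is shared with Gm43738, and reads of such pairs cannot be told apart here.

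On the length-scaled TPM scale, with each library divided by a size factor, Apoe was the most abundant member at a mean of 2146 TPM over 19 libraries (675 to 4034). It was followed by Msmo1, a sterol C4-methyl oxidase, at a mean of 266 TPM, by Insig1 at 229 TPM and by Hmgcs1, the enzyme that makes HMG-CoA, at 155 TPM. Fdft1 (squalene synthase) averaged 102 TPM and Cyp51 (lanosterol demethylase) 89.4 TPM. The scarcest members were Ebp, a sterol isomerase, at 6.99 TPM, Nr1h3 (LXR alpha) at 7.43 TPM and the exporter Abcg1 at 7.45 TPM. Nr1h2 (LXR beta) averaged 58.2 TPM. The coefficient of variation between libraries differed widely within roles. Of the SREBP2 regulators, Scap had 6.26% and Insig1 23.3%. In the LXR branch it ran from 9.41% for the exporter Abcg4 to 39.3% for Apoe, the widest of the 34. Among the synthesis enzymes it ran from 18.6% for Dhcr7, a sterol reductase, to 35.3% for Mvd.

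**Figure D1:**
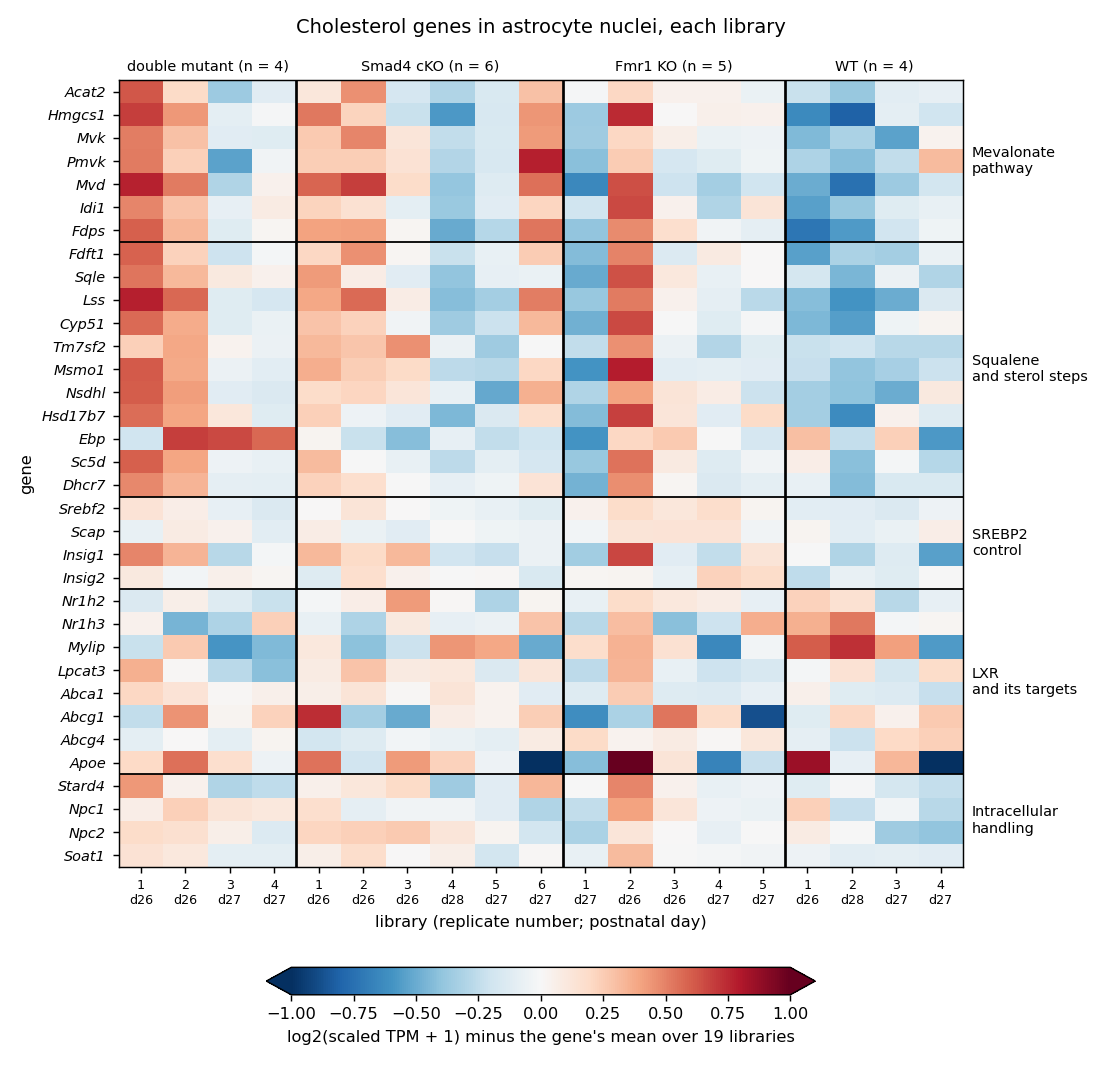
Each row is 1 of the 34 genes, grouped by role, and each column 1 of the 19 libraries with its replicate number and postnatal day; colour is log2(scaled TPM + 1) minus the gene's mean over the 19 libraries. The synthesis enzymes are high together in double mutant replicates 1 and 2 and Fmr1 KO replicate 2, and less so in Smad4 cKO replicates 1, 2 and 6. They are low together in WT replicates 1 and 2, Fmr1 KO replicate 1 and Smad4 cKO replicate 4. Apoe, Mylip and Abcg1 follow other orders.

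In the libraries with the Smad4 cKO label, synthesis enzymes lay above their counterparts without it, though no single member passed the test. Differences are given on the scale log2(scaled TPM + 1), with a p from limma adjusted over all 15049 genes of a comparison. Averaged over both Fmr1 backgrounds, the log2 difference was above 0 for 18 of 18 synthesis enzymes with a median of 0.25, and for 28 of all 34 members with a median of 0.18, beside a median of 0.00 (48.4% above 0) over all genes. At an adjusted p under 0.05 (limma), 0 of 34 members were called, beside 1.81% of all genes. At an unadjusted p under 0.05, 8 members were higher and 0 lower, beside 11% of all genes in either direction.

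Mvd, the decarboxylase that ends the mevalonate branch, stood highest by this measure. It had 97.0, 81.5, 45.8 and 58.5 TPM in double mutant libraries, against 35.9, 89.2, 48.8, 44.6 and 49.3 TPM in Fmr1 KO libraries. Smad4 cKO libraries ran from 43.0 TPM through a median of 74.1 TPM to 92.2 TPM, against 39.9, 33.3, 43.9 and 49.7 TPM in WT libraries. Both pairs of groups overlap: 1 double mutant library exceeded the highest Fmr1 KO library, and the lowest Smad4 cKO value lies among those of the WT. The averaged log2 difference was 0.55 ± 0.19 (SE; adjusted p = 0.188), with an adjusted p of 0.0613 to 0.368 over the alternatives.

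Mvk, which phosphorylates mevalonate, had 72.0, 61.4, 46.2 and 45.9 TPM in double mutant libraries, against 38.9, 58.0, 52.2, 47.8 and 48.3 TPM in Fmr1 KO libraries. In Smad4 cKO libraries it ran from 42.0 TPM through a median of 57.3 TPM to 70.5 TPM, against 36.6, 40.0, 34.3 and 51.3 TPM in WT libraries. Only 2 double mutant libraries exceeded every Fmr1 KO library, and the WT range reached into the Smad4 cKO range. Its averaged log2 difference was 0.32 ± 0.12 (SE; adjusted p = 0.253). Lss, which closes squalene epoxide into lanosterol, differed by 0.42 ± 0.17 (adjusted p = 0.311), and Tm7sf2, a sterol C14 reductase, by 0.28 ± 0.11 (adjusted p = 0.309). The synthesis median was 0.33 for Smad4 cKO against WT (17 of 18 above 0) and 0.18 for the double mutant against Fmr1 KO (18 of 18 above 0). Over all members, 28 of 34 were above 0 in the first of these (46.2% of genes) and 24 of 34 in the second (52.4% of genes). In these comparisons 0 of 34 members were called, beside 0.784% and 0.405% of genes. At an unadjusted p under 0.05 there were 7 and 1 members, beside 8.28% and 5.48% of genes, and 0 members had group ranges that did not overlap, beside 1.38% of genes higher and 0.89% lower in Smad4 cKO than WT, and 1.3% higher and 1.44% lower in the double mutant than Fmr1 KO. The median of members between the double mutant and Fmr1 KO was 0.15; it was 0.27 without Fmr1 KO replicate 2, 0.06 without Fmr1 KO replicate 1, 0.04 without double mutant replicate 1 and 0.25 without double mutant replicate 3. The median of members for Smad4 cKO against WT was 0.21; it was 0.12 with day as a factor and 0.13 with day as a number. Within postnatal days, the median member differed with the Smad4 label by 0.0956 at day 26 (5 libraries against 3) and by 0.111 at day 27 (4 against 5).

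With the Fmr1 KO label the synthesis enzymes also lay higher when days were pooled, but most of them did not within day 27. Averaged over both Smad4 backgrounds, 17 of 18 synthesis enzymes and 28 of 34 members were above 0, with medians of 0.22 and 0.14, beside 0.01 (53% above 0) over all genes. The count of members called was 0 (limma), beside 1.53% of genes. At an unadjusted p under 0.05, 7 members were higher and 0 lower, beside 13.2% of genes in either direction. In TPM without library factors, 2 members were called higher, Srebf2 at 0.19 (adjusted p = 0.0294) and Insig2 at 0.20 (adjusted p = 0.0489), beside 4.03% of all genes called in the same fit; all genes shifted up by a median of 0.09 there, and the median of members was 0.22. With day as a number the median of members was 0.08. Within days, the median member differed by 0.161 at day 26 (31 of 34 above 0; 4 libraries against 4) and by -0.0519 at day 27 (14 of 34 above 0; 5 against 4), so the direction of the pooled median did not hold within day 27. Of the synthesis enzymes, only Sqle, Tm7sf2, Ebp and Sc5d were above 0 at day 27. Hmgcs1 differed by 0.497 at day 26 and -0.0747 at day 27, and Hsd17b7 by 0.504 and -0.059. Without Fmr1 KO replicate 2 the pooled median was 0.09, and it was 0.09 without double mutant replicate 1. Endothelial markers and the ribosomal precursor moved with this label. The sum of 10 endothelial markers had a median of 130 TPM (93.1 to 180) in double mutant libraries, against 277 TPM (192 to 396) in Smad4 cKO libraries. It had a median of 103 TPM (71.9 to 223) in Fmr1 KO libraries, against 323 TPM (118 to 549) in WT libraries, and all 10 were above 0 in every library. Rn45s took 15.6% to 23.1% of the listed TPM with the Fmr1 KO label, against 20.7% to 35.7% without it. Their part in the result was not tested.

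Hsd17b7, a sterol ketone reductase, had 45.1, 40.3, 32.9 and 27.8 TPM in double mutant libraries, against a range of 21.9 to 36.0 TPM with a median of 28.7 TPM in Smad4 cKO libraries. It had 22.2, 49.3, 33.0, 28.0 and 34.8 TPM in Fmr1 KO libraries, against 23.8, 19.3, 31.3 and 27.7 TPM in WT libraries. Double mutant replicates 1 and 2 and Fmr1 KO replicate 2, all of day 26, held its 3 highest values. The averaged log2 difference was 0.32 ± 0.14 (SE; adjusted p = 0.322). For Hmgcs1 it was 0.37 ± 0.17 (adjusted p = 0.368).

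In the double mutant against WT, 18 of 18 synthesis enzymes were above 0 with a median log2 difference of 0.48, and the median of all 34 members was 0.35, beside 0.00 (49.6% above 0) over all genes. The test called 0 members (limma), beside 0.957% of genes. At an unadjusted p under 0.05, 15 members were higher and 0 lower, beside 12% of genes in either direction. Group ranges did not overlap for 4 members, all higher (Hmgcs1, Msmo1, Sqle and Tm7sf2), beside 3.42% of genes higher and 2.85% lower. With day entered as a number the median of members was 0.20, and with day as a factor it was 0.26. This comparison, that of Smad4 cKO and that of Fmr1 KO with WT use the same 4 WT libraries, so their directions are not independent.

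Hmgcs1 had 241, 201, 139 and 147 TPM in double mutant libraries, against 95.4, 84.5, 139 and 129 TPM in WT libraries. The double mutant minimum of 139.3 TPM lies just above the WT maximum of 138.8 TPM, and both are day 27 libraries. Smad4 cKO libraries ran from 99.3 TPM through a median of 153 TPM to 215 TPM, and Fmr1 KO libraries had 115, 250, 149, 154 and 153 TPM, so that 1 Fmr1 KO library lay above every double mutant library. The double mutant minus WT difference was 0.69 ± 0.26 (SE; adjusted p = 0.272).

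Sqle, the oxygen-dependent squalene epoxidase, had 87.2, 75.1, 64.2 and 61.6 TPM in double mutant libraries, against 52.8, 43.3, 57.4 and 48.5 TPM in WT libraries. All 4 double mutant values exceeded all 4 WT values, with a gap of a few TPM; the difference was 0.50 ± 0.20 (SE; adjusted p = 0.29). The single mutants spanned both: Smad4 cKO libraries ran from 45.3 TPM through 56.8 TPM to 80.9 TPM, and Fmr1 KO libraries had 41.9, 93.5, 64.4, 56.7 and 60.1 TPM.

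Msmo1 had 395, 335, 247 and 240 TPM in double mutant libraries, against 219, 196, 205 and 222 TPM in WT libraries (0.50 ± 0.23 SE; adjusted p = 0.399). Tm7sf2 had 93.0, 103, 80.5 and 75.6 TPM, against 67.4, 68.3, 64.8 and 64.6 TPM in WT libraries (0.39 ± 0.17 SE; adjusted p = 0.346). Both genes varied little in WT and widely in the double mutant, where the day 26 libraries were the higher ones. Lss showed a log2 difference of 0.68 ± 0.26 (adjusted p = 0.261) and Mvd of 0.70 ± 0.28 (adjusted p = 0.31). Beside these values, the summed oligodendrocyte markers had a median of 3010 TPM (892 to 4020) in double mutant libraries, against 1120 TPM (338 to 1690) in WT libraries, and all 15 of those markers were above 0 in every library. Oligodendrocytes also make cholesterol; the part of these cells in the difference was not tested, and a change in cell share and a change in RNA per cell cannot be told apart in bulk libraries. With scores for neurons, oligodendrocytes and microglia as covariates the median of members in this comparison was 0.32.

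**Figure D2:**
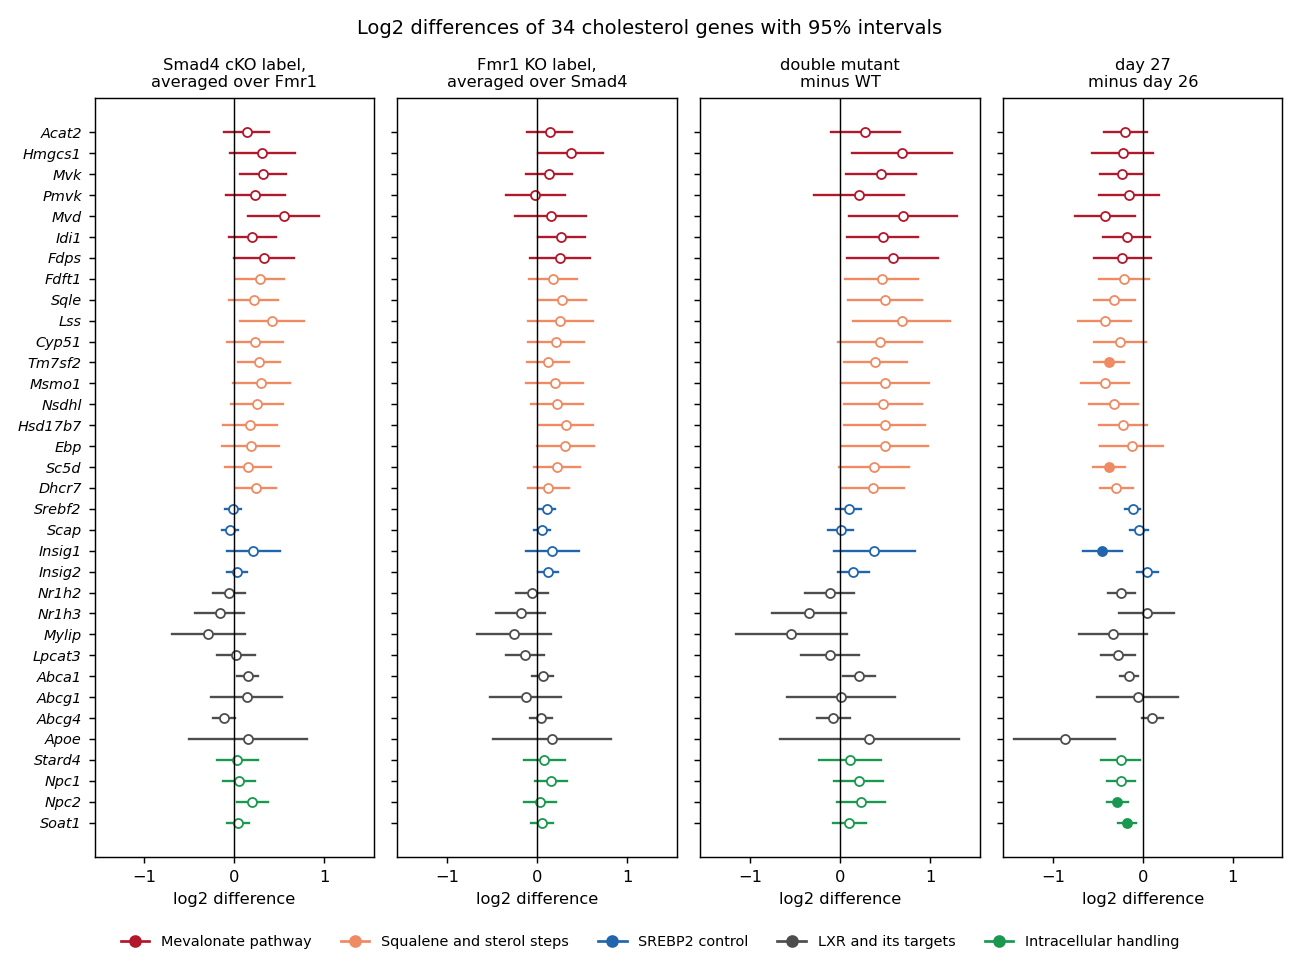
Log2 differences of the 34 genes (points) with their 95% intervals (lines), coloured by role, for the averaged Smad4 label, the averaged Fmr1 label, double mutant minus WT and day 27 minus day 26; filled points have an adjusted p under 0.05. Filled points are found in the day panel alone (5 genes), while the synthesis enzymes lie right of 0 in the first 3 panels with 1 exception, Pmvk under the Fmr1 label.

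**Figure D3:**
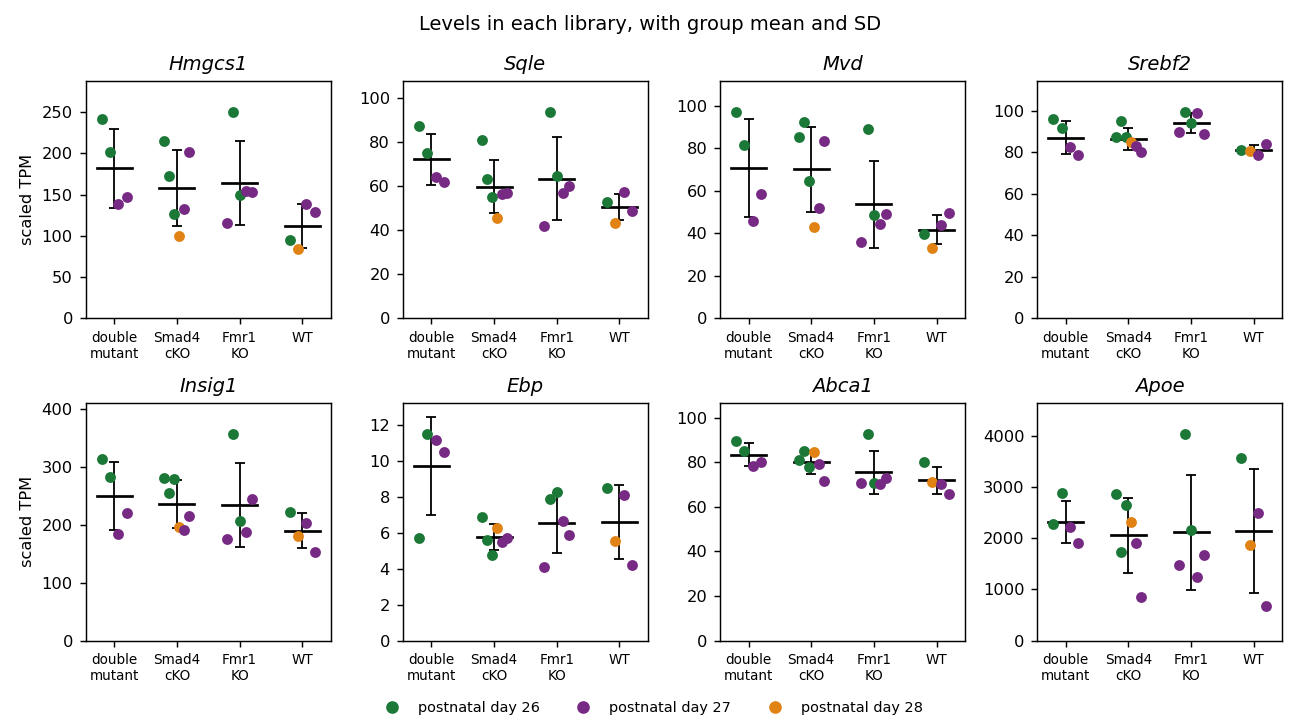
Scaled TPM of 8 genes in each library (points, coloured by postnatal day) with the group mean (horizontal line) and SD (bar), on axes from 0. Day 26 libraries hold the highest Hmgcs1, Sqle and Mvd values of the double mutant, Smad4 cKO and Fmr1 KO groups, Srebf2 is nearly flat, and Ebp is high in 3 of 4 double mutant libraries.

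Ebp departed from the other enzymes. Its 4 double mutant libraries had 5.71, 11.5, 11.2 and 10.5 TPM, against a range of 4.76 to 6.88 TPM with a median of 5.66 TPM in Smad4 cKO libraries. Fmr1 KO libraries had 4.1, 7.89, 8.27, 6.68 and 5.88 TPM, and WT libraries had 8.51, 5.55, 8.11 and 4.19 TPM. Double mutant replicates 2, 3 and 4 thus exceeded all other 16 libraries, while replicate 1, the one with the highest Hmgcs1 of its group, did not. The difference was 0.63 ± 0.21 (SE) against Smad4 cKO (adjusted p = 0.478) and 0.49 ± 0.22 against Fmr1 KO (adjusted p = 0.806). Summed oligodendrocyte markers were 892, 3175, 4024 and 2844 TPM in double mutant replicates 1 to 4. Smad4 cKO replicate 1 and Fmr1 KO replicate 3, each highest in Ebp in its group, had 3405 and 3586 TPM. In WT the order differed, as replicate 4, the lowest in Ebp, had the highest sum at 1695 TPM. The part of these cells in the Ebp differences was not tested. Against Smad4 cKO, 0 members were called (limma), beside 0.0199% of genes, and Ebp was the 1 member with an unadjusted p under 0.05, beside 7.56% of genes. Over all members, 25 of 34 were above 0 (52.9% of genes) with a median of 0.05, which was -0.01 without double mutant replicate 1 and 0.17 without double mutant replicate 3. No member had separate ranges, beside 0.724% of genes higher and 1.42% lower.

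Scap, Srebf2 and Insig2 varied less between libraries than any synthesis enzyme. Srebf2 had 89.7, 99.4, 94.2, 98.8 and 88.7 TPM in Fmr1 KO libraries, against 80.9, 80.7, 78.6 and 84.1 TPM in WT libraries. The 2 groups do not overlap, and the log2 difference was 0.21 ± 0.06 (SE; adjusted p = 0.237). In this comparison 0 members were called (limma), beside 0% of genes, 3 had an unadjusted p under 0.05, beside 8.23%, and Srebf2 and Acat2 had separate ranges, beside 1.09% of genes higher and 0.957% lower in Fmr1 KO. Acat2, which makes acetoacetyl-CoA in the cytosol, had 25.7, 30.1, 26.7, 26.8 and 24.8 TPM in Fmr1 KO libraries, against 22.1, 19.7, 24.0 and 24.4 TPM in WT libraries (0.24 ± 0.17 SE; adjusted p = 0.848). Over all 18 synthesis enzymes, the median difference of Fmr1 KO against WT was 0.28, and 30 of 34 members were above 0 (49.9% of genes) with a median of 0.19, or 0.07 without Fmr1 KO replicate 2 and 0.12 with day as a number.

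In double mutant libraries Srebf2 had 96.0, 91.5, 82.4 and 78.6 TPM, against a range of 80.2 to 95.3 TPM with a median of 86.0 TPM in Smad4 cKO libraries. These groups overlap throughout. The interaction, which is the Smad4 difference on the Fmr1 KO background minus that on the Fmr1 +/y background, was -0.20 ± 0.09 (SE; adjusted p = 1.00) for Srebf2. It called 0 members, beside 0% of genes, with Srebf2 alone among members at an unadjusted p under 0.05, beside 1.66% of genes. The median interaction was -0.14 over members and 0.02 over all genes, with 7 of 34 above 0, beside 54.1% of genes; each member's standard error was between 0.0856 and 0.621. With library weights the median interaction of members was -0.07, and with the cell-type scores -0.09. Without Fmr1 KO replicate 2 it was -0.03, and it was -0.05 and -0.06 without double mutant replicates 3 and 4. For Ebp the interaction was 0.62 ± 0.30, with an adjusted p of 1.00, and for Insig2 it was -0.15 ± 0.10, also with an adjusted p of 1.00.

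Insig1, itself a target of SREBP2, had 314, 283, 184 and 221 TPM in double mutant libraries, against 223, 181, 204 and 153 TPM in WT libraries. Smad4 cKO libraries ran from 191 TPM through a median of 235 TPM to 281 TPM, and Fmr1 KO libraries had 176, 357, 207, 188 and 245 TPM. All 4 groups overlap, and the double mutant minus WT difference was 0.38 ± 0.21 (SE; adjusted p = 0.52). Insig2 had 23.7, 23.8, 22.1, 27.5 and 26.6 TPM in Fmr1 KO libraries, against 19.4, 22.1, 21.4 and 23.2 TPM in WT libraries. It had 25.0, 22.9, 24.2 and 23.6 TPM in double mutant libraries, against a range of 20.9 to 26.3 TPM with a median of 23.4 TPM in Smad4 cKO libraries. The whole spread of Insig2 over the 4 groups was small, and its averaged Fmr1 difference was 0.12 ± 0.05 (SE; adjusted p = 0.321). Scap differed by less than 0.1 in each averaged comparison.

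Genes of the LXR branch lay near 0 as a group. Their median log2 difference was -0.02 for the averaged Smad4 label, -0.09 for the averaged Fmr1 label and -0.09 for double mutant against WT, with 4, 3 and 3 of 8 above 0. Abca1, which loads cholesterol onto lipid-poor apolipoproteins, had 89.6, 85.2, 78.3 and 80.2 TPM in double mutant libraries, against 70.8, 92.6, 70.9, 70.4 and 73.1 TPM in Fmr1 KO libraries. It ran from 71.5 TPM through a median of 80.1 TPM to 85.0 TPM in Smad4 cKO libraries, against 80.2, 71.3, 70.2 and 65.8 TPM in WT libraries. Apart from Fmr1 KO replicate 2, every Fmr1 KO library lay below every double mutant library. The averaged Smad4 difference was 0.15 ± 0.06 (SE; adjusted p = 0.263); without Fmr1 KO replicate 2 it was 0.19 (adjusted p = 0.0415), and Abca1 was then the 1 member called, beside 1.81% of genes in that fit.

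Apoe, the main lipid carrier secreted by astrocytes, varied more between libraries of a group than between groups. It had 2270, 2890, 2220 and 1910 TPM in double mutant libraries, against 3570, 1860, 2490 and 675 TPM in WT libraries. Fmr1 KO libraries had 1470, 4030, 2160, 1240 and 1680 TPM, and Smad4 cKO libraries ran from 844 TPM through a median of 2112 TPM to 2870 TPM. The averaged differences were 0.16 ± 0.31 (SE) for the Smad4 label (adjusted p = 0.938) and 0.17 ± 0.31 for the Fmr1 label (adjusted p = 0.884). Without WT replicate 4, the library at 675 TPM, they were -0.08 and -0.07. Mylip, the ubiquitin ligase that degrades lipoprotein receptors, and Nr1h3 lay lowest of the branch in double mutant against WT, at -0.54 ± 0.29 (SE; adjusted p = 0.501) and -0.34 ± 0.20 (adjusted p = 0.532).

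Among the proteins of intracellular handling, Npc2, which carries cholesterol out of late endosomes, showed a log2 difference of 0.20 ± 0.08 (SE; adjusted p = 0.328) with the averaged Smad4 label. Npc1, its membrane partner, Stard4, a cytosolic sterol carrier, and Soat1, which esterifies cholesterol for storage, lay between 0.03 and 0.05 in the same comparison. The 4 genes had a median of 0.05 for the Smad4 label and of 0.07 for the Fmr1 label, with 4 of 4 above 0 in both.

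Within genotypes, the synthesis enzymes moved as a block from library to library. Across 19 libraries, with each gene centred on its genotype mean, Hmgcs1 correlated with Cyp51 at Pearson's r = 0.96 (Spearman's rho = 0.96), each with p = 1e-05, the smallest that 100000 permutations within genotypes can give (8e-05 after Benjamini-Hochberg adjustment over 8 relations). It remained at r = 0.95 without Fmr1 KO replicate 2 and Smad4 cKO replicate 4, the libraries farthest from the median, and was 0.94 within day 26 and 0.98 within day 27. Cyp51 held rank 1 of the 15048 other genes by this r, and the adjustment over 8 relations does not account for that ranking. The p of this pair is therefore no test of the block. As a description over all members, r with Hmgcs1 was above 0.7 for 14 of 33 other members, beside 0.711% of 15048 other genes, and these 14 were all synthesis enzymes. Mvd, Fdps and Hsd17b7 each stood at 0.93 and Idi1, the isopentenyl diphosphate isomerase, at 0.90. The remaining enzymes were Nsdhl at 0.70, Tm7sf2 at 0.52 and Ebp at 0.06. These r values over many members are a description with no p; the points are the same 19 libraries, which share their scaling and differ in postnatal day.

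Ranking all genes by this r, the first 10 held 5 members, the first 20 held 9 and the first 50 held 13. Other genes in the first 20, named after their values were seen, included Acsl4 (r = 0.93), Me1 (0.91), Nktr (0.87), Elovl6 (0.87), Hcfc2 (0.86), Acly (0.85), Rfx7 (0.84), Cdk13 (0.84), Aacs (0.83) and Scd1 (0.83). Acsl4, Me1, Elovl6, Acly, Aacs and Scd1 encode enzymes of lipid and acetyl-CoA metabolism and of NADPH supply, and Nktr, Hcfc2, Rfx7 and Cdk13 do not; no theme was tested. Over pairs of genes, the median r was 0.86 within the mevalonate pathway, 0.78 within the squalene and sterol steps and 0.05 within the LXR branch. Srebf2 followed Hmgcs1 less closely, at r = 0.46 (p = 0.075, adjusted 0.2; rho = 0.47, p = 0.071, adjusted 0.189; permutation), with 0.43 without those 2 libraries, 0.53 within day 26 and 0.26 within day 27. Insig1 had r = 0.63 (p = 0.0115, adjusted 0.046) and rho = 0.57 (p = 0.0221, adjusted 0.0884; permutation), 0.48 without the 2 libraries, 0.63 within day 26 and 0.55 within day 27. Apoe had r = 0.04 (p = 0.889, adjusted 0.889; rho = 0.12, p = 0.635, adjusted 0.635; permutation) and -0.13 without them, with 0.08 within day 26 and -0.35 within day 27.

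Abca1 had r = 0.27 with Hmgcs1 (p = 0.298, adjusted 0.397; rho = 0.18, p = 0.48, adjusted 0.6; permutation), 0.12 without the 2 libraries, 0.54 within day 26 and -0.35 within day 27. Scores of cell-type markers were set against Hmgcs1 in the same way. The astrocyte score had r = 0.31 (p = 0.233, adjusted 0.397; rho = 0.28, p = 0.288, adjusted 0.461; permutation), 0.11 without the 2 libraries, 0.28 within day 26 and 0.05 within day 27. The oligodendrocyte score had r = 0.30 (p = 0.263, adjusted 0.397; rho = 0.29, p = 0.266, adjusted 0.461; permutation), 0.38 without them, 0.16 within day 26 and 0.43 within day 27. The neuron score had r = 0.11 (p = 0.693, adjusted 0.792; rho = 0.17, p = 0.525, adjusted 0.6; permutation), 0.10 without them, 0.49 within day 26 and 0.32 within day 27. None of these 4 relations, nor those of Srebf2 and Apoe, passed adjustment, and 19 libraries limit what such a test can detect.

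**Figure D4:**
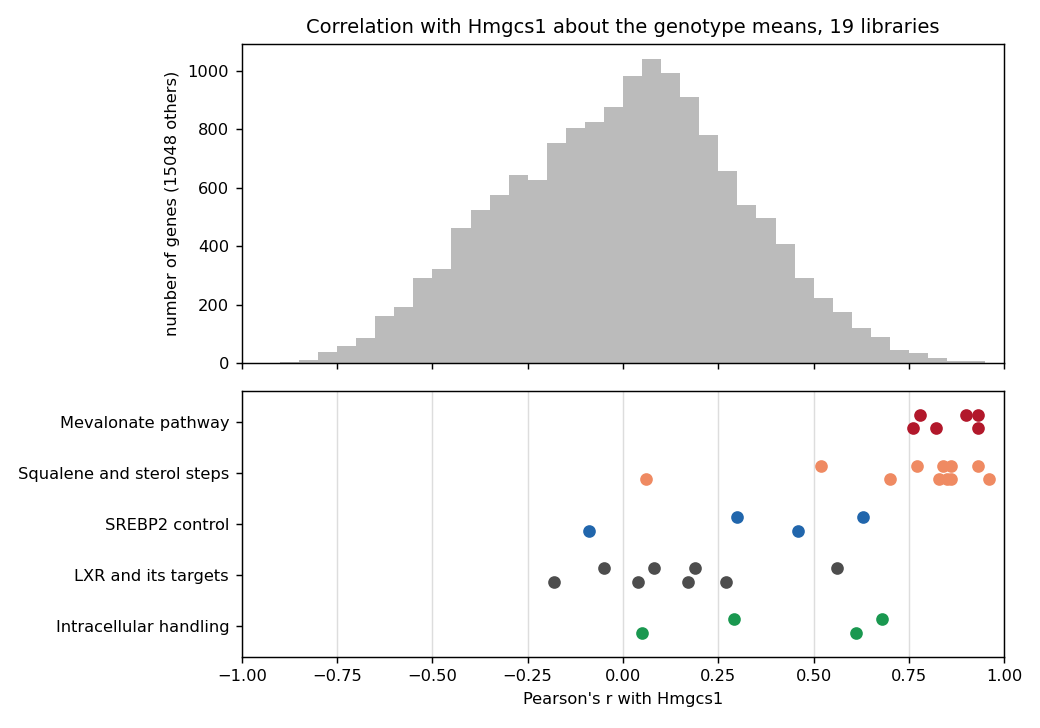
The upper panel counts 15048 genes by Pearson's r with Hmgcs1 about the genotype means of 19 libraries; the lower panel places the other 33 members on the same axis, 1 point a gene, by role. All 6 other genes of the mevalonate pathway lie at 0.76 or higher, while the LXR branch lies between -0.18 and 0.56 and 1 sterol enzyme, Ebp, at 0.06.

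Postnatal day moved with these genes, and a comparison of days was added after the data were seen. Day was unevenly spread over genotypes: day 26 held 2 double mutant, 3 Smad4 cKO, 2 Fmr1 KO and 1 WT libraries, day 27 held 2, 2, 3 and 2, and day 28 held 1 Smad4 cKO and 1 WT library. In a fit with genotype and day together, day 27 minus day 26 was above 0 for 3 of 34 members, beside 48.9% of genes, with a median log2 difference of -0.24 beside 0.00 over all genes. Of the 34, 5 fell at an adjusted p under 0.05 (limma) and 0 rose. Over all genes, 5.83% were called in either direction, 333 genes lower and 545 higher. At an unadjusted p under 0.05, 18 members were lower and 0 higher. Beside them were 23.1% of genes in either direction, 1719 lower and 1753 higher. All 18 synthesis enzymes lay below 0, with a median of -0.25, and 2 of them were among the 5.

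Tm7sf2 had 61.1, 66.1 and 80.5 TPM as its lowest, median and highest values at day 27 (9 libraries), against 67.4, 97.1 and 108 TPM at day 26 (8 libraries); it fell by 0.37 on the log2 scale (adjusted p = 0.0184). Sc5d, which introduces the C5 double bond, had 47.0, 57.5 and 60.7 TPM at day 27, against 58.2, 71.0 and 93.4 TPM at day 26, and it fell by 0.38 (adjusted p = 0.0236). Insig1 had 153, 191 and 245 TPM at day 27, against 207, 280 and 357 TPM at day 26, and it fell by 0.45 (adjusted p = 0.0240). In each of these genes the day 27 median lay below the lowest day 26 value, and the ranges overlapped. Npc2 had 21.2, 25.6 and 29.4 TPM at day 27, against 28.3, 31.8 and 34.1 TPM at day 26, and it fell by 0.28 (adjusted p = 0.0129). Soat1 had 54.2, 57.5 and 62.1 TPM at day 27, against 59.6, 65.4 and 77.2 TPM at day 26, and it fell by 0.17 (adjusted p = 0.0440). The Soat1 call was lost in 17 of 19 fits without 1 library. Without Fmr1 KO replicate 2, Insig1 differed by -0.37 (adjusted p = 0.0562, limma) and Sc5d by -0.32 (adjusted p = 0.0575), so neither was called. Without WT replicate 1, the calls of Insig1 (adjusted p = 0.0635), Sc5d (adjusted p = 0.0629) and Npc2 (adjusted p = 0.0534) were lost too. The Tm7sf2 call was lost in 0 of these 19 fits. Apoe had 675, 1680 and 2490 TPM at day 27, against 1730, 2762 and 4034 TPM at day 26, a difference of -0.87 ± 0.26 (SE) that did not pass (adjusted p = 0.0648).

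The composition of the sorts moved with day too. The astrocyte marker sum had a median of 9040 TPM at day 27, against 11900 TPM at day 26. The neuron sum had a median of 708 TPM at day 27, against 253 TPM at day 26. The microglia sum had 105 TPM at day 27, against 303 TPM at day 26, and the endothelial sum 126 TPM at day 27, against 207 TPM at day 26. With neuron, oligodendrocyte and microglia scores as covariates, 0 members were called, beside 0.0266% of genes, and the median of members was -0.37. Of the 5 called members, that fit moved Npc2 to -0.08, Insig1 to -0.21 and Sc5d to -0.25, nearer to 0, and Tm7sf2 to -0.53 and Soat1 to -0.25, farther from it. The part of composition in the day difference was not tested beyond that fit. The labels used here give postnatal day and no dissection date, so age and dissection date cannot be told apart. Without WT replicate 1, the lone WT library of day 26, 1 member was called, Tm7sf2, beside 0.757% of genes. Without Fmr1 KO replicate 2 there were 2, beside 1.89% of genes, and without Fmr1 KO replicate 3 there were 8, beside 7.37% of genes.

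**Figure D5:**
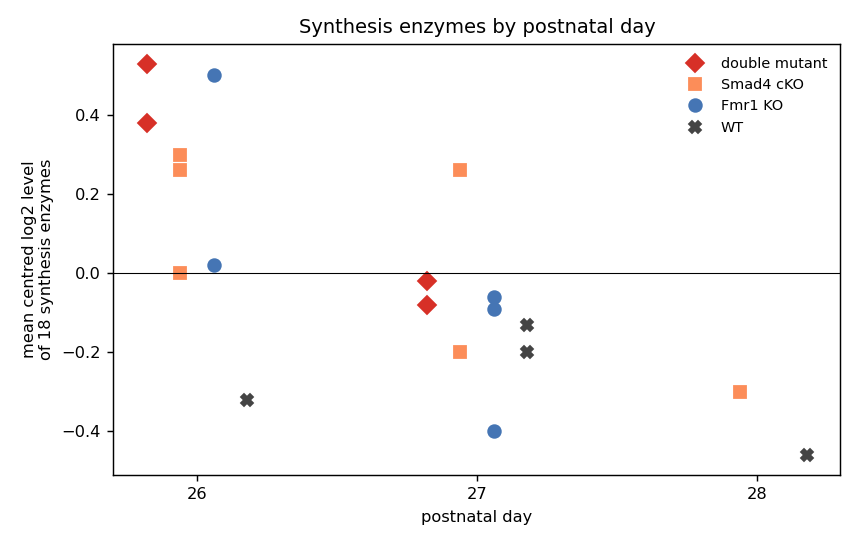
Mean centred log2 level of the 18 synthesis enzymes in each of the 19 libraries by postnatal day, with a symbol for each genotype. The double mutant libraries lie at 0.53 and 0.38 at day 26 and at -0.08 and -0.02 at day 27, and the 4 WT libraries lie between -0.46 and -0.13 on all 3 days. Smad4 cKO libraries lie between -0.3 and 0.3, and Fmr1 KO libraries between -0.4 and 0.5.

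Beyond the 34, a list of 45 further genes of sterol uptake, sensing, storage and export had 41 past the filter. The averaged Smad4 label called 1 of these lower and 0 higher, beside 1.81% of all genes in either direction. This was Lcat, which esterifies cholesterol on lipoproteins, at 81.6 ± 10.3 TPM in double mutant and 87.0 ± 22.3 TPM in Smad4 cKO libraries, against 163 ± 64.2 TPM in Fmr1 KO and 156 ± 36.5 TPM in WT libraries (SD). It fell by 0.89 on the log2 scale (adjusted p = 0.00579), and the highest value with the Smad4 cKO label, 110 TPM, lay below the lowest without it, 120 TPM. The call was lost in 0 of 19 fits without 1 library. The averaged Fmr1 label called 1 lower and 0 higher, beside 1.53% of all genes in either direction. This was Pltp, a phospholipid transfer protein, at 15.2 ± 4.62 TPM in double mutant and 17.3 ± 6.29 TPM in Fmr1 KO libraries, against 29.7 ± 4.69 TPM in Smad4 cKO and 35.8 ± 15.5 TPM in WT libraries (SD). It fell by 0.96 (adjusted p = 0.0249). The endothelial sums given above were also lower with this label, and the sum of 10 mural and fibroblast markers had a median of 161 TPM (151 to 185) in double mutant libraries, against 218 TPM (143 to 274) in Smad4 cKO libraries. It had 137 TPM (128 to 202) in Fmr1 KO libraries, against 193 TPM (132 to 261) in WT libraries; 9 of the 10 were above 0 in every library, and the part of these cells in the Pltp difference was not tested. The Pltp call was lost in 4 of 19 fits without 1 library (adjusted p of 0.0656 at most), with day as a factor (adjusted p = 0.0758), with the cell-type scores (adjusted p = 0.085), with the replicate block (adjusted p = 0.0871) and without the 2 libraries of day 28 (adjusted p = 0.0927). In the remaining comparisons of genotypes, 0 of the 41 were called. At an unadjusted p under 0.05, the Smad4 label had 7 of 41 higher and 1 lower, beside 11% of all genes in either direction. The Fmr1 label had 3 higher and 4 lower, beside 13.2%, and the double mutant against WT had 5 higher and 3 lower, beside 12%.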

How the data were processed

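The authors deposited 1 table of TPM for 19 libraries, with 1 transcript per gene; per the submitters' processing notes it was made with bcl2fastq 2.20, MultiQC 1.0, STAR 2.5.3a and HOMER 4.10.4 on mm10. Per the labels, libraries were made from rRNA-depleted nuclear RNA. The region counted (exons or gene bodies) and the strand setting are not given in the sources used here. Gene counts are not recoverable from TPM, so the depth is unknown and no count test was run; listed TPM sum to 665382 to 716222 per library.

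Libraries were scaled by median-of-ratios size factors (0.918 to 1.066). log2(scaled TPM + 1) was tested for genes with a mean of at least 1 TPM by limma-trend (R 4.3.3, limma 3.58.1) on all 19 libraries with group as the only term. Differences are on this scale, which understates those of low genes. Benjamini-Hochberg adjustment ran over all 15049 genes within each comparison, at 0.05. The averaged Smad4 or Fmr1 label is the mean of that difference on both backgrounds of the other gene. The fit was run on simulated data with independent noise for each gene. The simulated data held no day difference and no genes moving together, so that run does not cover either. Members, roles, lists and most comparisons were chosen with earlier results of these data known; the day comparison and the fits without day 28 were added after seeing the data. Values by library (lowest, median and highest for the 6 Smad4 cKO libraries) are given for Hmgcs1, Sqle, Insig1, Srebf2, Abca1 and Apoe, and for the 3 members of smallest p in the Smad4 average, the Fmr1 average and the interaction; others are named by level, role or day call. Same-numbered libraries do not pair: 5 of 25 pairs had a residual correlation over 0.1 (-0.27 to 0.20). Permutations for correlations were drawn within genotypes. Gene bodies came from GENCODE vM21 (GRCm38) and promoters from RefSeq (GRCm38.p6). The RefSeq sequences ran on for 50 bases after the start. In 34 of 36 member windows the last 20 of these bases were found on a transcript of the gene, which checks orientation and not the exact start. Some genes of the pathway are counted but not reported here by name. Figures used Python 3.11.15 and matplotlib 3.10.9.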

Additional observations from a re-analysis of the deposited data

Results flagged for a closer look

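Of 136 pairs of a gene and a group, 8 held an outlying value. A chance rate of 1 in 20 applies to independent pairs, and these 8 lay in 1 library, so it is no measure for them. All 8 were highest values in Fmr1 KO replicate 2, a day 26 library in a group of 5. Several of these genes moved together from library to library, so they are not 8 separate signs. The share of all genes outlying in that library was not counted. The gap to the next library was above Dixon's 95% critical value in each. Hmgcs1 stood at 250 TPM there, against 154 TPM in the next highest Fmr1 KO library. Mvd stood at 89.2 TPM against 49.3 TPM, Tm7sf2 at 108 TPM against 75.5 TPM and Msmo1 at 445 TPM against 241 TPM. The outlying genes were not confined to the enzymes. Lpcat3, a phospholipid acyltransferase and LXR target, stood at 51.8 TPM against 38.7 TPM, and Abca1 at 92.6 TPM against 73.1 TPM. Among genes of intracellular handling, Stard4 stood at 37.4 TPM against 27.1 TPM and Soat1 at 77.2 TPM against 61.6 TPM.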

How the results depend on the processing

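The 14 alternatives besides leaving out 1 library were scaling, pseudocount, filter, replicate block, day, compared groups alone, library weights, cell-type scores, a threshold of 0.1 and leaving out day 28. Of 1959 values of named genes under all alternatives, 1902 kept their sign and their side of the threshold. Of the rest, 45 lost a call, 5 gained one and 7 changed sign. Most of the values belonged to results not called in the main fit, which had no call to lose. Their share is therefore no measure of how firm the calls were. Fits without 1 library gave 0 members called for all comparisons of genotypes except the averaged Smad4 label, with 0 to 1, and 1 to 8 for day. Other settings gave 0, except 2 for the averaged Fmr1 label in unscaled TPM. For day, unscaled TPM gave 8 (4.75% of genes), library weights 9 (4.35%), a threshold of 0.1 15 (11.3%), the cell-type scores 0 and the replicate block 0 members; the block, whose numbers do not pair libraries, changed no other members' count but ended the Pltp call. Signs changed for Apoe without WT replicate 4 (-0.15 for double mutant against WT, range over fits without 1 library -0.15 to 0.65; -0.08 for the Smad4 label, -0.08 to 0.32; -0.07 for the Fmr1 label, -0.07 to 0.33). They also changed with the cell-type scores in the day comparison for Apoe (0.37) and Lcat (0.04). For Srebf2 and the Smad4 label, the sign changed in unscaled TPM (0.01) and without double mutant replicate 4 (0.01; range -0.04 to 0.01). The causes were not tested.

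Counts over all genes moved more. Smad4 cKO against WT called 118 (60 to 187 over alternatives; 63 with the block), double mutant against Fmr1 KO 61 (20 to 91; 21), the averaged Smad4 label 272 (208 to 427; 218), double mutant against WT 144 (46 to 360; 93) and the averaged Fmr1 label 230 (2 to 607; 2). Fmr1 KO against WT called 0, but 164 without WT replicate 3; double mutant against Smad4 cKO called 3 (0 to 4). Day called 878 (0 to 1694; 0 with the block, 312 at a mean of at least 5 TPM). With 4 to 6 libraries a group, the standard error of a synthesis enzyme in double mutant against WT was 0.164 to 0.284, which limits the size of a difference that could pass the test.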
